A study of Rattus norvegicus with 42 samples.

Results

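The silica by diet interaction 9 months after exposure asks, for each gene, whether inhaled crystalline silica changed its lung expression by a different amount on a high-fat diet than on a regular diet. It is the silica effect on the high-fat diet minus the silica effect on the regular diet, which equals the diet difference with silica minus the diet difference in air. The rule takes the 4 groups of the 9-month count table, 23 of the 42 male Fischer 344 rats of the study. The high-fat silica group held 6 rats and the regular-diet silica group 5, and the high-fat air group and the regular-diet air group held 6 rats each. The high-fat diet supplied 60% of its energy as fat and the regular diet 18%. Silica rats inhaled a dust of 15 mg/m3 with the whole body exposed, 6 hours daily over 5 days, and air rats inhaled air alone. The diets began before the exposure and were continued until the lung was taken. The lung was sampled as a piece of whole tissue, and total RNA depleted of ribosomal RNA was sequenced in stranded libraries.

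Inhaled crystalline silica is taken up by alveolar macrophages, which clear it poorly, and it leaves a lasting inflammation with granulomas, surfactant accumulation and fibrosis. Macrophages that hold particles and lipid express lysosomal enzymes, lipid receptors and proteases such as the macrophage elastase. A diet rich in fat changes lipid synthesis and hormone signals in many tissues, and the lung, which makes surfactant lipid, runs its own fatty acid synthesis and desaturation under the transcription factor Srebp1.

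Total counts per library ran from 3078216 to 8319382, and the ranges of the 4 groups overlapped. Markers of lung were present in every group, and the summed level of 12 alveolar type 2 cell genes ran from 15600 to 40800 CPM (read counts relative to the scaled library size) over the 4 groups. Levels in bulk lung cannot tell apart fewer cells of a type and less RNA per cell. The labels name the rats as separate animals housed 3 per cage, and the cages are not given. Libraries at 9 months fell into 2 sets that no label names. A group of 4 symbols had 0 counts in all 6 regular-diet air rats and in regular-diet silica rats 1 and 2, which makes 8 libraries, and at least 1 count in each of the other 15 libraries. LOC103693743 had 21 to 93 counts in those 15 libraries and C4a-2, a complement C4 symbol with near-identical copies, had 21 to 174. The other 2 symbols, LOC100911313 and LOC100911855, had 1 to 8. No symbol showed the reverse pattern, and at 3 months the highest count of any of the 4 in any rat was 5.

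The share of counts on the ribosomal RNA symbols Rnr1 and Rnr2 moved with the groups as well. It was 7.29% to 7.85% in high-fat silica rats (median 7.73%), and 2.88%, 2.6%, 3.76%, 3.76% and 5.35% in regular-diet silica rats 1 to 5. In air it was 4.62% to 7.19% in high-fat rats (median 6.69%) and 0.375% to 2.29% in regular-diet rats (median 0.997%). The diets did not overlap under either exposure (two-sided exact permutation test, p = 0.0021645 for the high-fat against the regular diet in each, adjusted over the 2 comparisons p = 0.0021645). The split of the libraries separates the air rats by diet without exception, so in air the diet and the split cannot be told apart. The silica effect on the high-fat diet lies on 1 side of the split, and the effect on the regular diet can be read on the other side from regular-diet silica rats 1 and 2. That is called the split reading, and the RNA reading is the fit with the log2 ribosomal RNA share as a covariate. Of the 167 interaction genes described next, 21 stayed called in the split reading, which has 3 rats fewer, 17 in the RNA reading and 8 in both. Of the air-only genes 2 stayed called in both, and of the silica-only genes 4. Beyond these readings the part of the split or of the RNA share in a result was not tested.

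**Figure D1:**
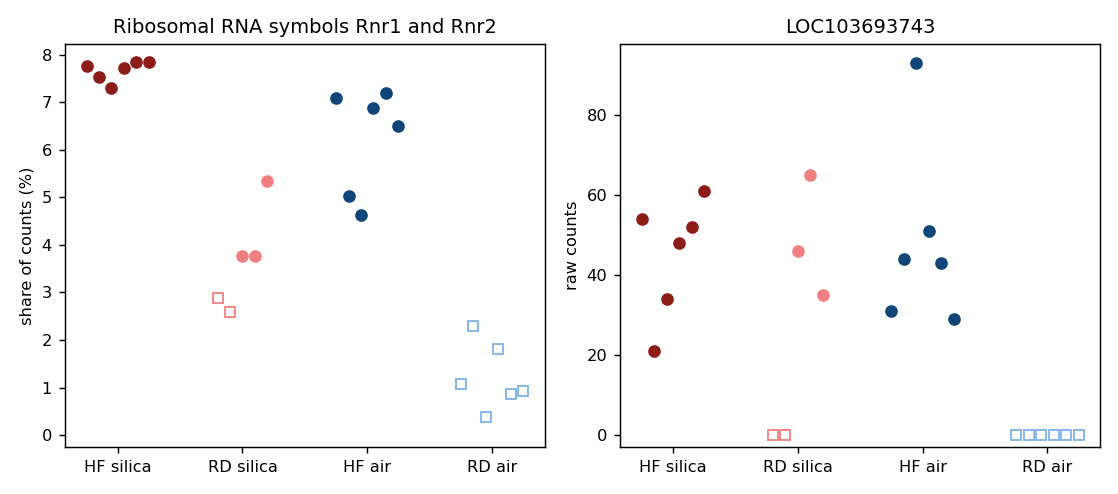
The left panel plots the percent of counts on Rnr1 and Rnr2 and the right panel the raw counts on LOC103693743, 1 point per rat at 9 months, in the high-fat (HF) and regular-diet (RD) groups. Open squares are the 8 libraries with 0 counts on the 4 symbols, all 6 regular-diet air rats and regular-diet silica rats 1 and 2, and filled circles are the other 15 libraries.

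Of 15276 genes tested, 167 were called for the interaction (edgeR quasi-likelihood test, Benjamini-Hochberg adjusted p below 0.05), which is 1.09%. The silica effect was higher on the high-fat diet for 84 of them and lower for 83. Their median size was 0.52 on the log2 scale, and 23 reached a difference of at least 1. The diet difference in air was called for 2325 genes (15.2%) and the diet difference with silica for 537 (3.52%). Silica changed 7875 genes on the high-fat diet (51.6%) and 6885 on the regular diet (45.1%). The interaction count depended on single rats: it was 72 and 88 without regular-diet silica rats 5 and 4, and 103 and 274 without regular-diet air rats 2 and 4. It was 90, 104 and 85 without high-fat air rats 1, 2 and 3, and 273, 108, 80 and 107 without high-fat silica rats 1, 3, 5 and 6. The remaining 12 omissions stayed within 1.5 times of 167. DESeq2 called 343 genes, limma voom 273, and a fit adjusted for the ribosomal RNA share 23, and each of these gave all 167 genes the same sign.

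For 76.0% of the 167 genes the diets differed in air only, by the same threshold applied to each diet difference, 59 with a higher and 68 with a lower silica effect on the high-fat diet. For 30 they differed with silica only, for 7 under both exposures, and for 3 in neither comparison. With an unadjusted p below 0.05 for each diet difference, 93 were air only, 20 silica only, 54 both and 0 neither. A diet difference that was not called is thus not shown to be absent. The air difference was the larger of the pair in 125 of the 167 genes. In air the rats of the high-fat and the regular diet did not overlap for 110 of the 167 genes, and with silica for 31, which rests on the same counts as the calls. Over all 15276 genes they did not overlap for 6.05% in air, where the split separates the same rats, and for 3.17% with silica. Among the 84 genes with a higher silica effect on the high-fat diet, 79 had a negative air difference, and all 83 genes with a lower silica effect had a positive one. Read as silica effects, 57 of the 84 rose with silica on both diets, by more on the high-fat diet, and 16 rose on the high-fat diet only. Of the 83, 35 rose on the regular diet only, 22 fell on the high-fat diet only, and 11 were called in opposite directions on the diets.

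**Figure D2:**
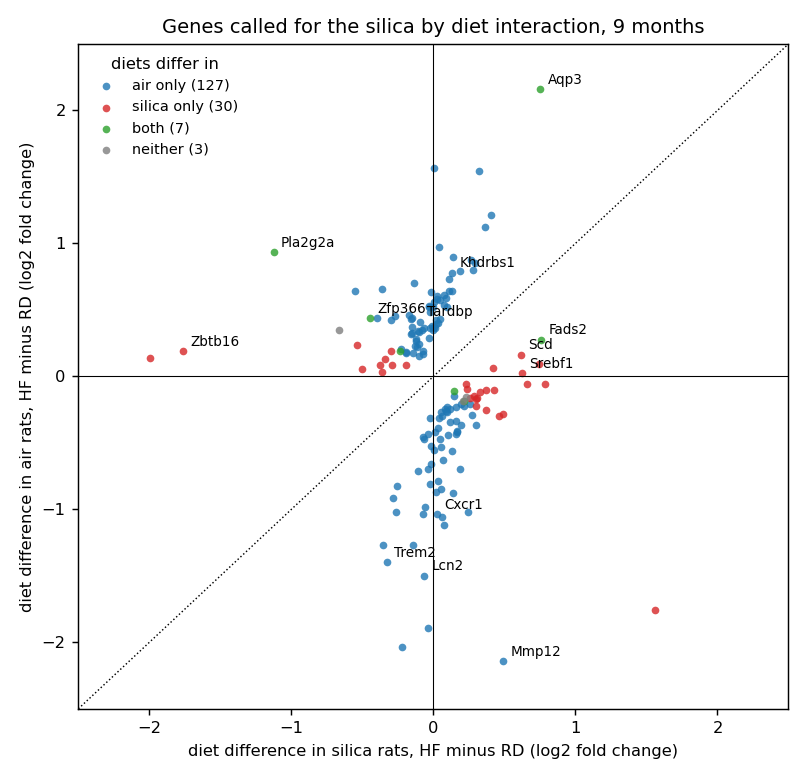
Each point is 1 of the 167 genes called for the interaction, with the high-fat minus regular diet difference in silica rats on the horizontal axis and that in air rats on the vertical axis, both as log2 fold changes. Colours give where the diets differed (59 and 68 air only, higher and lower, 30 silica only, 7 both, 3 neither), and the dotted line marks equal differences. The air-only genes form a vertical band near 0 on the horizontal axis, Zbtb16 and the placeholder symbol RGD1566226 stand at the far left, and 2 genes, LOC103693743 and LOC100909505, lie above the plotted range.

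The calls were next read within the sides of the library split. With regular-diet silica rats 1 and 2 as the whole of their group, each silica effect lies on 1 side, and 166 of the 167 genes had the same sign of interaction. Their median ratio to the value with all rats was 0.94. The exception was LOC103693743, itself 1 of the 4 symbols at 0. This fit, with 3 rats fewer, called 27 genes, 21 of them among the 167. By class the sign held for the air-only genes except LOC103693743 and for all 30 silica-only genes, with median ratios of 0.93 and 1.05. These rats also took part in choosing the genes, so the shared signs are a description. With the split as a term in the fit, 37 genes were called for the interaction, 27 of them among the 167. The regular-diet silica group alone lies on both sides, so its rats 1 and 2 against 3 to 5 set this term. The interactions are thus nearly those of the split reading (-2.07 for Zbtb16 in each) and no separate evidence. The diet difference in air, corrected by that contrast of silica rats, was called for 16 genes and that with silica for 184.

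**Figure D3:**
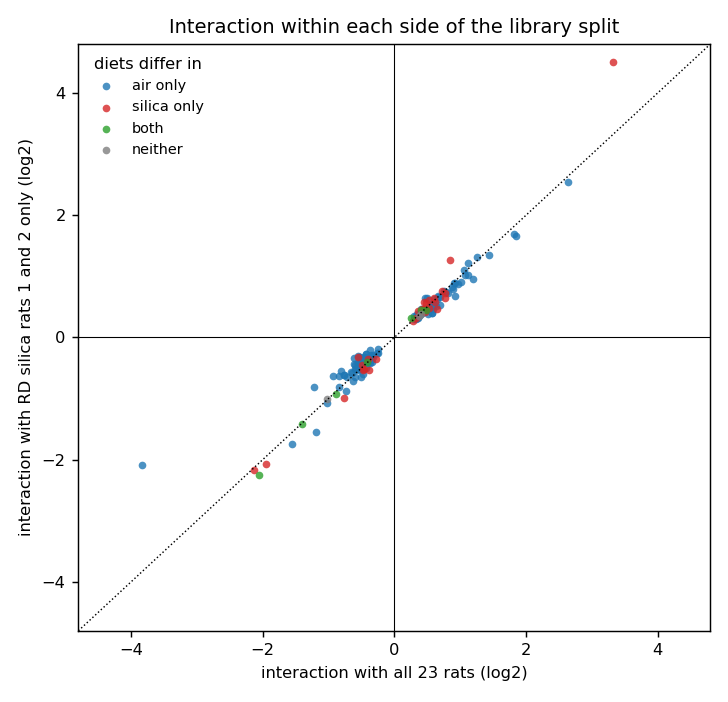
Each point is 1 of the 167 genes, with the log2 interaction from all 23 rats on the horizontal axis and that with regular-diet silica rats 1 and 2 only on the vertical axis, coloured by where the diets differed. Points lie along the dotted line of equality, with a median ratio of 0.94, and LOC103693743 lies outside the plotted range.

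The diets differed only in silica rats for 30 genes, 20 with a higher and 10 with a lower silica effect on the high-fat diet. High-fat silica rats and regular-diet silica rats 3 to 5 lie on the same side of the library split. The fit with rats 3 to 5 as the whole of the regular-diet silica group is called the same-side fit. It kept the call of the diet difference with silica for 14 of the 30 genes. Zbtb16 had the smallest adjusted p of all genes. It encodes PLZF, a zinc finger transcription factor of innate-like lymphocytes that glucocorticoids induce in many cells. Its level was 43.1 to 65.9 CPM in high-fat silica rats (median 52.9), and 153, 243, 179, 184 and 153 CPM in regular-diet silica rats. In air it was 167 to 287 CPM on the high-fat diet (median 215) and 140 to 236 CPM on the regular diet (median 204). All 6 high-fat silica rats were below all other 17 rats, and the other 3 groups overlapped. Silica lowered Zbtb16 on the high-fat diet with a log2 fold change of -2.04 and an SE of 0.15 (adjusted p = 2.1e-11), and its effect on the regular diet was -0.09 ± 0.15 (adjusted p = 0.66). The interaction was -1.95 ± 0.21 (adjusted p = 1.3e-05), with a diet difference of -1.76 ± 0.15 with silica (adjusted p = 2.3e-07) and of 0.19 ± 0.14 in air (adjusted p = 0.38). It was -2.07 in the split reading (adjusted p = 2.6e-04) and -2.23 in the RNA reading (adjusted p = 3.0e-05). Summed T cell markers, 13 genes with none at 0, ran from 152 to 213 CPM in high-fat silica rats and from 155 to 251 CPM in regular-diet silica rats. Of these 13 genes, 0 were called for the interaction and 1 had a positive value, with a median of -0.44. Silica raised 12 of the 13 on the regular diet and 4 on the high-fat diet, beside 3735 and 4072 of all 15276 genes tested. The part of T cells in the Zbtb16 values was not tested.

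Other glucocorticoid-induced genes gave mixed values. Fkbp5, a co-chaperone of the glucocorticoid receptor, had 37.2 to 53.8 CPM in high-fat silica rats (median 41.8), and 62.7, 117.2, 80.3, 79.5 and 55.7 CPM in regular-diet silica rats. In air its range was 61.0 to 100 CPM on the high-fat diet (median 73.6) and 42.5 to 102 CPM on the regular diet (median 64.2). No high-fat silica rat reached the lowest regular-diet silica rat, and the air groups overlapped. Its diet difference with silica was -0.85 ± 0.20 (adjusted p = 0.021), and its interaction of -1.06 ± 0.28 missed the threshold (adjusted p = 0.059). In the RNA reading the interaction of Fkbp5 was -1.67 and was called (adjusted p = 0.021). With all groups and no covariate it was called in 2 of 23 fits that left out 1 rat. Of 14 tested genes of the glucocorticoid response list, 1 was called lower for the interaction, Zbtb16, and 1 higher, Lcn2, an antimicrobial lipocalin. The list's median interaction was -0.16, beside 0.0045 over all genes tested.

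Bcl2l11, which encodes the pro-apoptotic protein Bim, followed the order of Zbtb16 with a smaller change. It had 27.7 to 33.9 CPM in high-fat silica rats (median 30.7), and 40.5, 42.4, 40.3, 38.5 and 38.8 CPM in regular-diet silica rats. Air rats had 40.8 to 50.0 CPM on the high-fat diet (median 45.4) and 39.0 to 45.5 CPM on the regular diet (median 43.1). The silica rats of the diets did not overlap and the air rats did. The interaction was -0.47 ± 0.09 (adjusted p = 0.010), -0.51 in the split reading (adjusted p = 0.052) and -0.59 in the RNA reading (adjusted p = 0.021).

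Of 17 tested genes of fatty acid synthesis and desaturation, 4 rose with silica by more on the high-fat diet. Their interactions were called in neither reading, except that of Fads1 in the split reading. In the same-side fit the diet difference with silica stayed called for all 4. It was 0.60 for Srebf1 (adjusted p = 0.0062) and 0.54 for Scd (adjusted p = 0.0015). For Fads1 it was 0.38 (adjusted p = 0.0027) and for Fads2 0.79 (adjusted p = 3.9e-05). Srebf1, which encodes the transcription factor Srebp1, had 172 to 225 CPM in high-fat silica rats (median 204), and 118.3 to 144.3 CPM in the 5 regular-diet silica rats (median 133.5). The air rats had 102.4 to 123.9 CPM on the high-fat diet (median 111.8) and 88.3 to 136.9 CPM on the regular diet (median 108.6). The silica rats of the diets did not overlap, and the air rats overlapped over most of their range. Silica raised Srebf1 by 0.84 ± 0.09 on the high-fat diet (adjusted p = 9.5e-09) and by 0.24 ± 0.09 on the regular diet (adjusted p = 0.031), an interaction of 0.60 ± 0.12 (adjusted p = 0.021). The value was 0.64 in the split reading (adjusted p = 0.094) and 0.48 in the RNA reading (adjusted p = 0.29).

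Scd encodes the stearoyl-CoA desaturase, which makes monounsaturated fatty acids. Its level was 2132 to 2392 CPM in high-fat silica rats (median 2202), and 1345, 1333, 1511, 1564 and 1519 CPM in regular-diet silica rats. In air it was 1141 to 1375 CPM on the high-fat diet (median 1281) and 967 to 1372 CPM on the regular diet (median 1085). Again the diets separated with silica and overlapped in air, with an interaction of 0.45 ± 0.10 (adjusted p = 0.028). The interaction of Scd was 0.57 in the split reading (adjusted p = 0.052) and 0.27 in the RNA reading (adjusted p = 0.46). Fads1, the delta-5 desaturase of polyunsaturated fatty acids, averaged 249 ± 21.3 CPM in high-fat silica rats (SD, n = 6) and 186 ± 9.99 CPM in regular-diet silica rats (n = 5), against 176 ± 5.92 CPM in high-fat air rats and 168 ± 8.57 CPM in regular-diet air rats (n = 6 each). Its interaction was 0.36 ± 0.07 (adjusted p = 0.019), with 0.44 in the split reading (adjusted p = 0.044) and 0.36 in the RNA reading (adjusted p = 0.15). Fads2, the delta-6 desaturase, was the 1 of these genes with both diet differences called, 0.76 ± 0.07 with silica (adjusted p = 8.8e-07) and 0.28 ± 0.07 in air (adjusted p = 0.010). Its interaction of 0.48 ± 0.10 (adjusted p = 0.023) was 0.45 in the split reading (adjusted p = 0.15) and 0.31 in the RNA reading (adjusted p = 0.39).

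Of 17 tested genes of the lipogenesis list, 4 were called for the interaction, all higher (Srebf1, Scd, Fads1 and Fads2). With silica the high-fat diet was higher for 6 of the 17, the others being Acly, which makes cytosolic acetyl-CoA, and Acacb, an acetyl-CoA carboxylase. In air it was higher for 1 and lower for 3. Over all 15276 genes tested it was higher for 278 with silica, and in air higher for 1246 and lower for 1079. The median interaction of the list was 0.32, beside 0.0045 over all genes tested. Fasn, the fatty acid synthase, was 1 of the 3 lower in air, with a diet difference of -0.36 (adjusted p = 0.030). Its difference with silica was 0.09 (adjusted p = 0.77). The Fasn interaction of 0.45 ± 0.16 was not called (adjusted p = 0.20). In the cholesterol synthesis list of 22 tested genes, 7 were higher on the high-fat diet with silica and 4 in air (all genes tested, 278 and 1246). Insig1, which holds the Srebp precursors in the endoplasmic reticulum, was the 1 called for the interaction (0.44 ± 0.10, adjusted p = 0.032). It stayed called in 16 of 23 fits that left out 1 rat, and was 0.47 in the split reading (adjusted p = 0.12) and 0.23 in the RNA reading (adjusted p = 0.50). Fdps (0.43 ± 0.11, adjusted p = 0.059) and Cyp51 (0.34 ± 0.10, adjusted p = 0.10) lay short of it.

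The summed alveolar type 2 cell markers, 12 genes with none at 0, moved with silica too. They ran from 31600 to 40800 CPM in high-fat silica rats, from 29800 to 35800 CPM in regular-diet silica rats, from 15600 to 19600 CPM in high-fat air rats and from 17900 to 26200 CPM in regular-diet air rats. None of the 12 was called for the interaction, and their part in the desaturase values was not tested. Sftpc, which encodes surfactant protein C, had an interaction of 0.57 ± 0.15 (adjusted p = 0.063). The summed level of 9 adipocyte symbols was 489 to 610 CPM in high-fat silica rats and 554 to 678 CPM in regular-diet silica rats, overlapping, with the defining markers Adipoq and Lep at or near 0.

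Among the other silica-only genes, Capn5, a calpain protease, had 123 to 149 CPM in high-fat silica rats (median 137.6), and 107, 106, 102, 104 and 107 CPM in regular-diet silica rats. In the air groups it had 81.0 to 93.1 CPM on the high-fat diet (median 85.5) and 79.9 to 101 CPM on the regular diet (median 94.6). The diets separated with silica, and the interaction was 0.48 ± 0.08 (adjusted p = 0.0055), 0.46 in the split reading (adjusted p = 0.065) and 0.54 in the RNA reading (adjusted p = 0.022). Chosen after their values were seen, Wnk4, a kinase that controls ion transport, had an interaction of 0.72 ± 0.18 (adjusted p = 0.048) and Kcnn4, a calcium-activated potassium channel, one of -0.77 ± 0.19 (adjusted p = 0.048). Kcnn4 rose with silica by 0.99 ± 0.13 on the high-fat diet and by 1.76 ± 0.14 on the regular diet. Ftl1, the ferritin light chain, had 0.85 ± 0.19 (adjusted p = 0.028), but it has near-identical copies in the genome, so its counts are uncertain. Within regular-diet silica rats its level was 36.7 and 42.7 CPM in rats 1 and 2 and 60.7, 62.3 and 62.6 CPM in rats 3 to 5, on either side of the library split. The interactions of Kcnn4 and Ftl1 stayed called in both readings, and that of Wnk4 in neither. In the same-side fit the diet difference with silica was 0.63 for Wnk4 (adjusted p = 0.030) and 0.56 for Ftl1 (adjusted p = 0.024). For Kcnn4 it was -0.38 and was not called (adjusted p = 0.15).

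**Figure D4:**
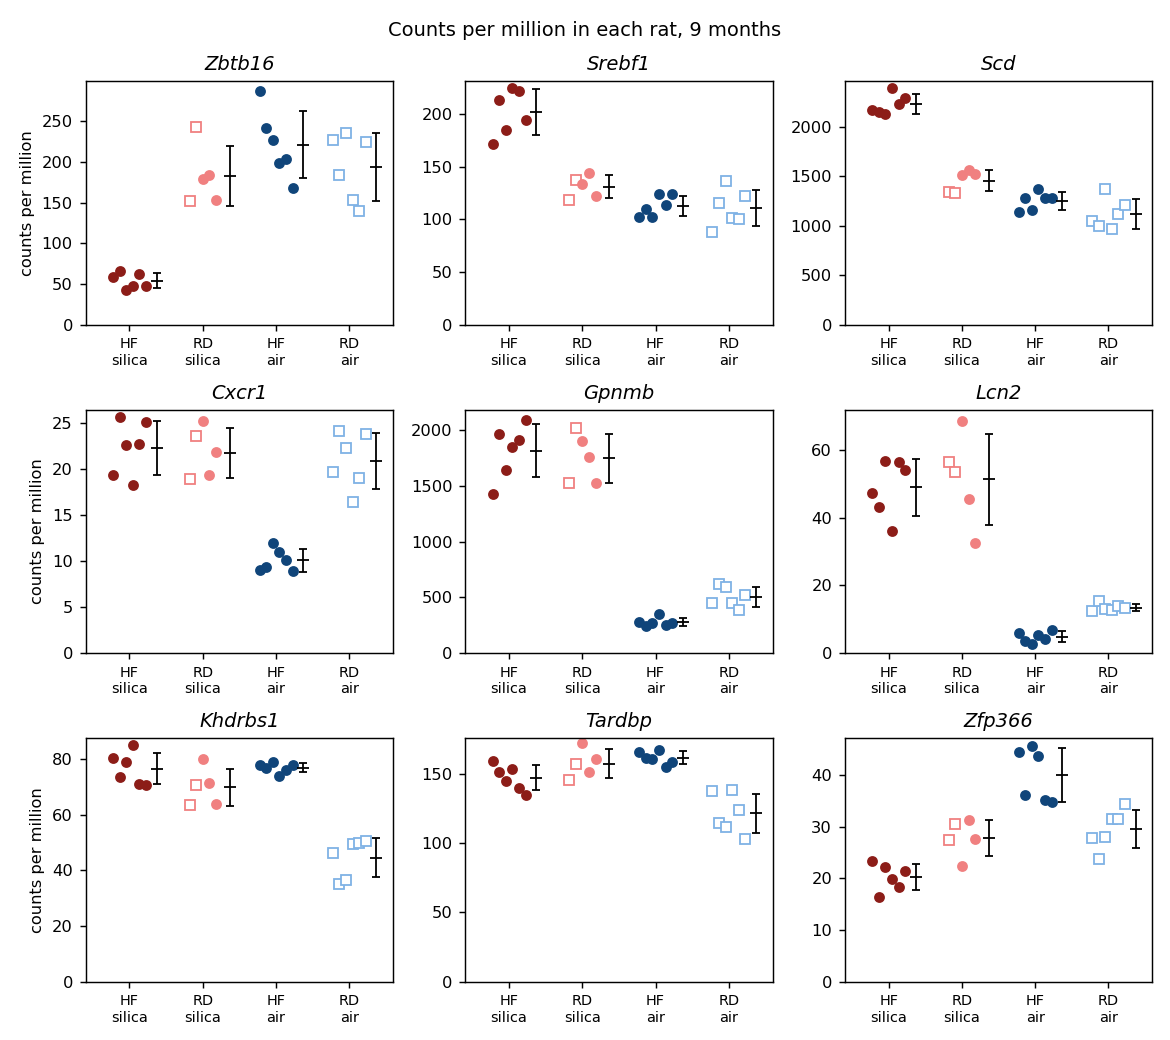
CPM of 9 genes in each rat at 9 months, in the order high-fat (HF) silica, regular-diet (RD) silica, high-fat air and regular-diet air, with the mean and SD of each group at its right. Open squares are the 8 libraries with 0 counts on the 4 symbols described above. Zbtb16, Srebf1 and Scd separate the diets with silica, Cxcr1, Gpnmb, Lcn2, Khdrbs1 and Tardbp separate them in air, and Zfp366 has its highest values in high-fat air rats and its lowest in high-fat silica rats.

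The air-only class with a higher silica effect on the high-fat diet held 59 genes, 14 of them in the lipid-laden macrophage, lysosome, neutrophil or alveolar macrophage lists. In that order these lists held 18, 25, 10 and 9 of the 15276 genes tested, with some genes shared. They were picked from 53 lists with earlier results of these data known. All 59 were lower on the high-fat diet in air, with no call for a diet difference with silica. Cxcr1, a receptor for neutrophil-attracting chemokines, had the smallest adjusted p in this direction. Its level was 18.3 to 25.6 CPM in high-fat silica rats (median 22.7), and 18.9, 23.6, 25.2, 19.4 and 21.8 CPM in regular-diet silica rats. In air it was 8.95 to 12.0 CPM on the high-fat diet (median 9.76) and 16.5 to 24.2 CPM on the regular diet (median 21.0). The high-fat air rats lay below all other rats, and the other 3 groups overlapped. Silica raised Cxcr1 by 1.12 ± 0.11 on the high-fat diet (adjusted p = 6.9e-09), and its effect on the regular diet was 0.06 ± 0.11 (adjusted p = 0.68). The interaction was 1.06 ± 0.16 (adjusted p = 0.0029), 1.10 in the split reading (adjusted p = 0.021) and 1.00 in the RNA reading (adjusted p = 0.027).

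Most other genes of this kind rose with silica on both diets. Gpnmb, a glycoprotein of macrophages under lysosomal stress, had 1426 to 2090 CPM in high-fat silica rats (median 1880), and 1524, 2018, 1897, 1757 and 1524 CPM in regular-diet silica rats. In air it had 245 to 352 CPM on the high-fat diet (median 271) and 389 to 620 CPM on the regular diet (median 486). The air groups did not overlap and the silica groups did. Its silica effect was 2.70 ± 0.12 on the high-fat diet and 1.79 ± 0.11 on the regular diet, an interaction of 0.90 ± 0.16 (adjusted p = 0.0055). It was 0.88 in the split reading (adjusted p = 0.071) and 0.89 in the RNA reading (adjusted p = 0.055). Trem2, a lipid-sensing receptor of macrophages, had 53.6 to 64.6 CPM in high-fat silica rats (median 55.8), and 67.5, 81.0, 71.8, 73.6 and 62.6 CPM in regular-diet silica rats. In air the ranges were 15.1 to 25.4 CPM on the high-fat diet (median 16.9) and 37.6 to 71.6 CPM on the regular diet (median 43.4). The air groups did not overlap and the silica groups did. Its air difference was -1.40 ± 0.14 (adjusted p = 7.2e-07), its difference with silica -0.33 ± 0.13 (adjusted p = 0.17) and its interaction 1.07 ± 0.19 (adjusted p = 0.0055), with 1.01 in the split reading (adjusted p = 0.072) and 1.12 in the RNA reading (adjusted p = 0.035).

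Mmp12, the macrophage elastase, had the largest interaction in this direction among genes with an assigned name. It stood at 106 to 145 CPM in high-fat silica rats (median 140.5), and at 102, 105, 156, 64.2 and 53.7 CPM in regular-diet silica rats. In air it was at 0.29 to 5.89 CPM on the high-fat diet (median 1.65) and 2.77 to 22.0 CPM on the regular diet (median 6.06). The diets overlapped under both exposures. The interaction was 2.63 ± 0.58 (adjusted p = 0.026), from silica effects of 6.14 ± 0.39 on the high-fat diet and 3.51 ± 0.33 on the regular diet. The split reading gave 2.53 (adjusted p = 0.071) and the RNA reading 2.77 (adjusted p = 0.12).

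Of 18 tested genes of the lipid-laden macrophage list, 8 were called for the interaction, all higher. They were Mmp12, Atp6v0d2, Ctsk, Trem2, Lgals3, Gpnmb, Ctsd and Lgmn, which include a lysosomal proton pump subunit (Atp6v0d2), the lysosomal proteases cathepsin K and D and legumain (Ctsk, Ctsd and Lgmn) and the lectin galectin-3 (Lgals3). In air 13 of the 18 were lower on the high-fat diet and 0 higher, and with silica 0 were called. The median air difference of the list was -0.67, its median difference with silica -0.06 and its median interaction 0.60, beside -0.0053, 0.0067 and 0.0045 over all genes tested. None of the 8 stayed called in the split reading, and Trem2 was the 1 that did in the RNA reading. Spp1 (osteopontin) had an interaction of 0.97 ± 0.56 that was not called (adjusted p = 0.46). In the lysosome list of 25 tested genes, 5 were called higher for the interaction (Ctsd, Ctsk, Hexa, Atp6v0d1 and Atp6v0d2), and 15 were lower on the high-fat diet in air against 1 with silica. None of these 5 stayed called in either reading.

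The acidic proteases and pump subunits of the lysosome are known targets of the transcription factor TFEB, which binds a palindrome that holds CACGTG. Promoters of the RefSeq table for build GRCr8, which take 250 bases before the start site and 50 after it, were searched for CACGTG and for the longer TCACGTGA, which contains it. Both read the same on either strand. Of the 167 symbols, 66.5% matched the table, with 126 promoters. CACGTG was present in 15.9% of these 126 promoters and in 6.42% of all 33469, and TCACGTGA in 3.17% and 0.777%. By class CACGTG was in 23.1% of 52 promoters of the air-only genes with a lower silica effect on the high-fat diet, against 13.6% of 44 of those with a higher one, which hold the lysosomal genes. In the silica-only class it was in 5.88% of 17 promoters with a higher silica effect and in 0 of 6 with a lower one. Insig1 was the 1 silica-only gene with the motif. The 33469 promoters were not limited to genes tested here. Of the 4 promoters with TCACGTGA, 2 belong to Armcx4, an air-only gene with a lower silica effect. These 2 promoters overlap and hold the same site, which is thus counted 2 times in the shares of both motifs. The promoters of Ctsd and Atp6v0d1, of the RNA-binding gene Khdrbs1 and of Insig1 are shown as examples of genes of the different classes that hold the motif, which is a match of letters and not evidence of binding. Ctsd holds a further CACGTG, left in lower case. They are written 5' to 3' along the gene, with TCACGTGA in capitals in the Ctsd and Atp6v0d1 promoters and CACGTG in the other two.
Ctsd, chr1:206968772-206969071, minus strand: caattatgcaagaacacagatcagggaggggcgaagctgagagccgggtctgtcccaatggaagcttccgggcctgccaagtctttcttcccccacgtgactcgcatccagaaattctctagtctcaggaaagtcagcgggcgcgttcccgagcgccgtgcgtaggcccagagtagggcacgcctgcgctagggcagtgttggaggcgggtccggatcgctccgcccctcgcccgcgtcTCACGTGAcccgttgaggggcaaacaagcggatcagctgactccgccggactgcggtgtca
Atp6v0d1, chr19:50357199-50357498, minus strand: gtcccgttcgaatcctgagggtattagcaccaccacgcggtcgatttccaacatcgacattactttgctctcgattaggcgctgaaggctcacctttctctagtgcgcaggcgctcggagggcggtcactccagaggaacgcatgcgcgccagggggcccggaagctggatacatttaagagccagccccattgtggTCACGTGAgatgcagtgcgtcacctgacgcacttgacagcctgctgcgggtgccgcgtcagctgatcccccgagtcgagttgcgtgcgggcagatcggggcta
Khdrbs1, chr5:147373399-147373698, minus strand: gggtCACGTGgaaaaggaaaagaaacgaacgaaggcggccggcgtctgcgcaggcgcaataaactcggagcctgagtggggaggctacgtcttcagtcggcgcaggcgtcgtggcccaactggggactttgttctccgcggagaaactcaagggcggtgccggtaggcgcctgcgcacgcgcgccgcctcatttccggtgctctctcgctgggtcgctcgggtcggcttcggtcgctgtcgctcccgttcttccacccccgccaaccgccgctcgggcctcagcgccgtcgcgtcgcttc
Insig1, chr4:8057720-8058019, minus strand: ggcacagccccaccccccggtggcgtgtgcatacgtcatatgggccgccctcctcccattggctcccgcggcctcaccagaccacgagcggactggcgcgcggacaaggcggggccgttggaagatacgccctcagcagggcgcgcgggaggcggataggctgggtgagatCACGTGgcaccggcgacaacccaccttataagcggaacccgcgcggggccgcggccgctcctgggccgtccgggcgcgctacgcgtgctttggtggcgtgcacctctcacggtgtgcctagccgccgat

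In Ctsd the palindrome starts 11 bases before the start site and in Atp6v0d1 53 bases before it. Ctsd, the lysosomal aspartic protease, had 1883 to 2258 CPM in high-fat silica rats (median 2064), and 1920, 2294, 2327, 2166 and 1684 CPM in regular-diet silica rats. Air rats had 591 to 766 CPM on the high-fat diet (median 647) and 860.4 to 1359 CPM on the regular diet (median 977). The air groups did not overlap, and the interaction was 0.64 ± 0.14 (adjusted p = 0.023), 0.63 in the split reading (adjusted p = 0.10) and 0.65 in the RNA reading (adjusted p = 0.15). Atp6v0d1, a subunit of the same pump as Atp6v0d2, had an interaction of 0.33 ± 0.08 (adjusted p = 0.046).

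Lcn2, released by neutrophils and epithelium, had 36 to 56.6 CPM in high-fat silica rats (median 50.8), and 56.4, 53.4, 68.6, 45.5 and 32.5 CPM in regular-diet silica rats. In the air groups it had 2.80 to 6.98 CPM on the high-fat diet (median 4.88) and 12.4 to 15.5 CPM on the regular diet (median 13.2). The air groups were far apart relative to their spread and the silica groups overlapped, with an interaction of 1.43 ± 0.25 (adjusted p = 0.0055), 1.34 in the split reading (adjusted p = 0.021) and 1.41 in the RNA reading (adjusted p = 0.068). Cd177, a surface protein of neutrophils, averaged 35.4 ± 4.53 CPM in high-fat silica rats (SD, n = 6) and 34.1 ± 7.44 CPM in regular-diet silica rats (n = 5), against 4.17 ± 0.715 CPM in high-fat air rats and 8.79 ± 1.20 CPM in regular-diet air rats (n = 6 each). Its interaction was 1.12 ± 0.20 (adjusted p = 0.0073), 1.02 in the split reading (adjusted p = 0.027) and 0.94 in the RNA reading (adjusted p = 0.16). Of the 10 tested neutrophil markers these 2 were called, both higher, and the list's median interaction was 0.06. In air 2 of the 10 were called lower on the high-fat diet and 0 higher (all genes tested, 1079 and 1246). The list's median air difference was 0.08. The summed level of the 10 in air overlapped, with 183 to 313 CPM on the high-fat diet (median 212) and 136 to 416 CPM on the regular diet (median 164).

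Further genes of this direction were Hk3, the hexokinase of myeloid cells (0.96 ± 0.16), Naaa, a lysosomal acid amidase (0.88 ± 0.15), Scimp, an adaptor of antigen-presenting cells (0.88 ± 0.16), and Ccl3, a chemokine of macrophages (1.01 ± 0.18). Each had an adjusted p between 0.0055 and 0.0065 and did not overlap between the air groups. Hk3 and Ccl3 stayed called in the split reading only, Scimp in the RNA reading only and Naaa in neither. C3, the central complement protein, averaged 2667 ± 186 CPM in high-fat silica rats and 2545 ± 534 CPM in regular-diet silica rats, against 383 ± 28.8 CPM in high-fat air rats and 592 ± 106 CPM in regular-diet air rats. Its interaction was 0.69 ± 0.15 (adjusted p = 0.026), 0.66 in the split reading (adjusted p = 0.078) and 0.43 in the RNA reading (adjusted p = 0.40). Of the 9 tested alveolar macrophage markers, 2 were called for the interaction, Cd68 (0.58 ± 0.13, adjusted p = 0.027) and Plet1 (0.82 ± 0.16, adjusted p = 0.016), and 6 were lower on the high-fat diet in air. Neither Cd68 nor Plet1 stayed called in a reading. Over all 15276 genes tested, 1079 were lower on the high-fat diet in air. The summed level of the 10 alveolar macrophage markers in the table was 982 to 1280 CPM in high-fat silica rats and 1090 to 1450 CPM in regular-diet silica rats, against 445 to 541 CPM in high-fat air rats and 586 to 877 CPM in regular-diet air rats. Ear1 alone was at 0 in a whole group, the regular-diet air rats. This sum moves with the lysosomal and macrophage genes, and its part in their values was not tested.

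**Figure D5:**
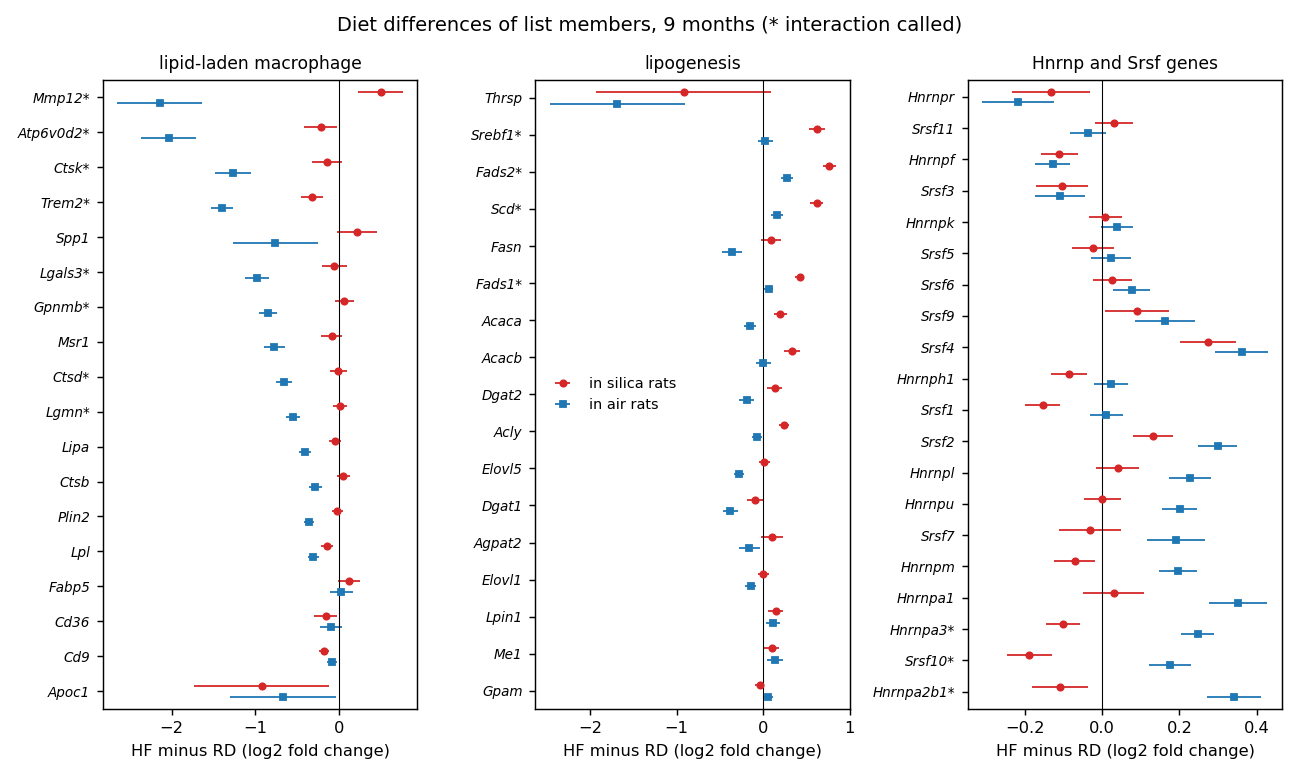
High-fat minus regular diet differences, as log2 fold changes with their SE, in silica rats (red circles) and in air rats (blue squares) for the tested members of the lipid-laden macrophage and lipogenesis lists and the Hnrnp and Srsf genes of the RNA-binding list, sorted by the interaction, with an asterisk on members called for it. Of the 18 lipid-laden macrophage genes, 13 were called lower for high-fat rats breathing air and 0 with silica, the 4 called lipogenesis genes lie right of 0 with silica, and Hnrnpa2b1, Hnrnpa3 and Srsf10 lie right of 0 in air and left of 0 with silica.

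The 68 air-only genes with a lower silica effect on the high-fat diet were higher on the high-fat diet in air. Several encode RNA-binding proteins of the nucleus. Khdrbs1 encodes Sam68, a splicing regulator. It had 70.7 to 85.0 CPM in high-fat silica rats (median 76.1), and 63.4, 70.6, 79.9, 71.2 and 63.8 CPM in regular-diet silica rats. In air it had 74.1 to 78.8 CPM on the high-fat diet (median 77.2) and 35.0 to 50.5 CPM on the regular diet (median 47.8). The regular-diet air rats stood below all others, and the other 3 groups overlapped. Silica raised Khdrbs1 on the regular diet by 0.64 ± 0.08 (adjusted p = 6.0e-07), its effect on the high-fat diet was -0.01 ± 0.08 (adjusted p = 0.96), and the interaction was -0.65 ± 0.11 (adjusted p = 0.0055). It was -0.59 in the split reading (adjusted p = 0.072) and -0.64 in the RNA reading (adjusted p = 0.073).

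Tardbp, which encodes the splicing regulator TDP-43, had 134.6 to 159.1 CPM in high-fat silica rats (median 148), and 145, 157, 172, 151 and 161 CPM in regular-diet silica rats. Air rats had 155 to 167 CPM on the high-fat diet (median 161) and 103 to 138.2 CPM on the regular diet (median 118.8). Its air groups did not overlap, and the interaction was -0.51 ± 0.09 (adjusted p = 0.0055), -0.45 in the split reading (adjusted p = 0.082) and -0.42 in the RNA reading (adjusted p = 0.15). Hnrnpa3, a heterogeneous nuclear ribonucleoprotein, had -0.35 ± 0.06 (adjusted p = 0.0055), with 231 to 253 CPM in high-fat air rats and 184 to 212 CPM in regular-diet air rats. Of 30 tested RNA-binding splicing factors, 4 were called for the interaction, all lower, Hnrnpa2b1, Hnrnpa3 and Srsf10 among them, and these 3 stayed called in neither reading. In air 11 of the 30 were higher on the high-fat diet and 1 lower, and with silica 1 was higher. Over all 15276 genes tested, 1246 were higher and 1079 lower in air, and 278 were higher with silica. The list's median interaction was -0.08.

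Rps16, a ribosomal protein gene with near-identical copies, had 121.7 to 142.7 CPM in high-fat silica rats (median 135.1) and 64.4, 97.3, 137.5, 106.6 and 133.1 CPM in regular-diet silica rats. In air it had 110.8 to 133.9 CPM on the high-fat diet (median 127.5) and 17.0 to 79.8 CPM on the regular diet (median 40.3). The air groups did not overlap, and the regular-diet air rats, which also had the lowest ribosomal RNA shares, overlapped with regular-diet silica rat 1. The interaction of Rps16 was -1.22 ± 0.30 (adjusted p = 0.045) with all rats, -0.81 in the split reading (adjusted p = 0.37) and -0.78 in the RNA reading (adjusted p = 0.50). It stayed called in 7 of 23 fits that left out 1 rat.

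Among the remaining genes of this direction, Tbc1d14, a regulator of autophagy, had an interaction of -0.53 ± 0.09 (adjusted p = 0.0060) and Nedd4l, the ubiquitin ligase of the epithelial sodium channel, one of -0.63 ± 0.11 (adjusted p = 0.0061). Nedd4l had a median of 140.3 and a highest level of 150 CPM in high-fat silica rats, and 142.8, 192.3, 140.7, 155.4 and 161.9 CPM in regular-diet silica rats. Air rats had 160 to 212 CPM on the high-fat diet (median 176) and 116.7 to 142.3 CPM on the regular diet (median 135.4). The air groups did not overlap. Nedd4l fell with silica on the high-fat diet (-0.37 ± 0.08) and rose on the regular diet (0.26 ± 0.08), and its interaction was -0.71 in the split reading (adjusted p = 0.027) and -0.79 in the RNA reading (adjusted p = 0.021). Rcsd1, a regulator of actin capping, had an interaction of -0.52 ± 0.09 (adjusted p = 0.0055), and neither it nor Tbc1d14 stayed called in a reading. Bst2, an interferon-induced membrane protein, had -0.93 ± 0.23 (adjusted p = 0.048) and stayed called in 7 of 23 fits that left out 1 rat and in neither reading, with -0.64 (adjusted p = 0.35) and -0.44 (adjusted p = 0.63). The type I interferon response list of 20 tested genes held no other call.

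The diets differed under both exposures for 7 genes, and for 5 of them in opposite directions (Zfp366, Flvcr2, Pla2g2a, Ctnna1 and Ppp1cb, all named because they are so few). In the same-side fit, which has fewer rats, the diet difference with silica stayed called for 1 of the 7, Fads2. It was thus called there for none of the 5 with opposite directions (adjusted p from 0.12 for Ppp1cb to 0.24 for Ctnna1). Zfp366, a zinc finger regulator of dendritic cells, had 16.4 to 23.4 CPM in high-fat silica rats (median 20.6), and 27.4, 30.5, 22.5, 31.3 and 27.6 CPM in regular-diet silica rats. In the air groups it had 34.7 to 45.7 CPM on the high-fat diet (median 39.9) and 23.8 to 34.3 CPM on the regular diet (median 29.7). The air groups did not overlap and the silica groups overlapped in 1 regular-diet rat. Its diet difference was -0.44 ± 0.11 with silica (adjusted p = 0.023) and 0.44 ± 0.10 in air (adjusted p = 0.0030), an interaction of -0.88 ± 0.15 (adjusted p = 0.0055), -0.93 in the split reading (adjusted p = 0.025) and -0.97 in the RNA reading (adjusted p = 0.027).

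Pla2g2a, a secreted phospholipase of inflammation, had 6.43 to 17.1 CPM in high-fat silica rats (median 8.14), and 33.1, 12.2, 9.44, 25.7 and 18.6 CPM in regular-diet silica rats. In air it had 12.9 to 28.6 CPM on the high-fat diet (median 22.6) and 7 to 18.6 CPM on the regular diet (median 10.1). The groups overlapped under both exposures, and the interaction was -2.06 ± 0.42 (adjusted p = 0.018), -2.25 in the split reading (adjusted p = 0.036) and -1.98 in the RNA reading (adjusted p = 0.15). Flvcr2, a membrane transporter, had the opposite order, with a diet difference of 0.21 ± 0.05 with silica (adjusted p = 0.016) and -0.18 ± 0.05 in air (adjusted p = 0.0084). Ctnna1, alpha-catenin, had an interaction of 0.26 ± 0.05 and Ppp1cb, a catalytic subunit of protein phosphatase 1, one of -0.42 ± 0.09 (adjusted p = 0.022 and 0.023). In the same direction under both exposures were Fads2, above, and Aqp3, a water and glycerol channel, with 0.75 ± 0.19 with silica (adjusted p = 0.026) and 2.16 ± 0.24 in air (adjusted p = 1.7e-06). Flvcr2 stayed called in both readings, Ctnna1 in the split reading only, and Ppp1cb and Aqp3 in neither. Neither diet difference was called for Fam46b (interaction -1.02 ± 0.26), Fgfr2 (0.40 ± 0.10) and Pvrl2 (0.38 ± 0.09), of which Fam46b stayed called in the RNA reading.

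Some genes with large silica or diet effects were not called for the interaction. Ccl2, a monocyte-attracting chemokine, had 1.06 ± 0.38 (adjusted p = 0.20), and Esr1, the estrogen receptor, rose by 3.61 on each diet with an interaction of -0.00 ± 0.19 (adjusted p = 0.999). Retnla, a product of alternatively activated macrophages, had 510 to 663 CPM in high-fat silica rats (median 580) and 291, 412, 356, 284 and 236 CPM in regular-diet silica rats. Air rats had 3.26 to 18.55 CPM on the high-fat diet (median 5.41) and 3.75 to 11.9 CPM on the regular diet (median 5.81). The diets separated with silica (0.87, adjusted p = 0.016) and overlapped in air, while the interaction of 0.81 ± 0.38 was not called (adjusted p = 0.33). The clock gene Nr1d1, a repressor that sets daily rhythms, was higher on the high-fat diet under both exposures, by 1.85 with silica (adjusted p = 3.4e-06) and 2.09 in air (adjusted p = 3.7e-07), and its interaction was -0.24 ± 0.28 (adjusted p = 0.77). Cyp1a1, a target of the aryl hydrocarbon receptor, had 2.41 to 5.34 CPM in high-fat silica rats and 0.00 to 0.193 CPM in regular-diet silica rats. In the air groups it had 8.97 to 15.4 CPM on the high-fat diet and 0.00 to 0.863 CPM on the regular diet, and its interaction was -0.38 ± 2.06 (adjusted p = 0.96). Col1a1, the fibrillar collagen chain, had -0.30 ± 0.14 (adjusted p = 0.31), and 0 of 28 tested genes of the extracellular matrix list were called.

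Mesothelial genes differed between the diets with silica without an interaction call. Of 7 tested markers of the mesothelium, the lining of the lung surface, 6 were lower on the high-fat diet with silica, 0 in air and 0 for the interaction, with medians of -1.63, -0.30 and -1.24. Over all 15276 genes tested, 259 were lower on the high-fat diet with silica and 1079 in air. The summed level of the mesothelial markers was 257 to 350 CPM in high-fat silica rats and 279 to 517 CPM in regular-diet silica rats, against 418 to 646 CPM in high-fat air rats and 356 to 749 CPM in regular-diet air rats. The summed level of 12 cardiac muscle markers was 23.9 to 383 CPM in high-fat silica rats, 16.4 to 516 CPM in regular-diet silica rats, 51.0 to 1250 CPM in high-fat air rats and 22.7 to 798 CPM in regular-diet air rats. None of the 10 tested was called for the interaction.

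The same contrast in the other 19 rats of the study, sampled at 3 months from 4 to 5 rats a group, called 0 of 15234 genes (0%) with edgeR, 990 had an unadjusted p below 0.05, and DESeq2 called 1. The difference between the interactions at 9 and 3 months, over 15759 genes in 1 fit of all 42 rats, was called for 0 genes (0%) with edgeR, with 1601 at an unadjusted p below 0.05 and 11 called by DESeq2. Of the 167 genes, 164 were tested at 3 months and 97 had the same sign there, 13 of them with an unadjusted p below 0.05, against 5 of the opposite sign. The median of the 164 at 3 months was 0.02. In the edgeR fit across all genes at 3 months, the interaction was -0.95 for Zbtb16 (adjusted p = 0.85), -0.89 for Fkbp5 (adjusted p = 0.75), 1.35 for Atp6v0d2 (adjusted p = 0.74) and 0.10 for Srebf1 (adjusted p = 0.93). Cxcr1 had 0.08 and Khdrbs1 0.12, on which the time points differed by 0.99 ± 0.36 and -0.75 ± 0.17 without passing the adjusted threshold (adjusted p = 0.32 and 0.13). Time point, age and count table are 1 factor in these comparisons.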

How the data were processed

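Counts per gene were deposited by the authors, 1 table per time point. Per the submitters' processing notes, the tools listed were TopHat2 2.0.9, Bowtie2 2.2.9, HTSeq 0.6.1, Trimmomatic 0.35, SAMtools 0.1.19 and bcl2fastq 2.19, on build Rnor_6.0. The strand setting and annotation are not given in the sources used here, so overlapping, antisense and near-identical genes are uncertain. Groups came from the labels. The 23 libraries at 9 months were fitted in edgeR 4.0.16 (R 4.3.3) with TMM scaling, a filter on low counts, 1 coefficient per group and the quasi-likelihood test, with Benjamini-Hochberg adjustment over all genes tested. CPM used the TMM-scaled library size, and each SE is the log2 fold change divided by the root of F. DESeq2 1.42.0 and limma 3.58.1 were alternatives. Scripts were tested on simulated data.

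The members and lists were chosen with earlier results of these data known. Named genes had a mean log2 CPM of at least 1 and no placeholder symbol: the 12 smallest adjusted p and the 6 largest interactions in each direction, the 3 smallest p in each list with called members, and a fixed panel. Acacb, Acly, Fasn, Atp6v0d1, Ctsk, Lgals3, Wnk4, Kcnn4, Ftl1, Ctnna1, Ppp1cb, Fam46b, Fgfr2, Pvrl2 and the placeholder symbols were named outside this rule, after their values were seen. The 3 readings of the library split were added after seeing the data. Where nothing more is known of cages or preparation, p-values measure only the spread between these rats. Some results are not reported here.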

Additional observations from a re-analysis of the deposited data

Results flagged for a closer look

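With all rats, 167 genes were called for the interaction by a test of the difference itself. Of these, 21 stayed called in the split reading, 17 in the RNA reading and 8 in both. LOC103693743, which is among the 167, had an interaction of -7.62 with all rats and of 0.21 in the split reading. A gap test for a single rat far from the others of its group was run on the 68 genes screened and on the ribosomal RNA share. That made 276 groups of values, and 23 single values stood apart by it, where chance gives about 1 in 20 groups. Values below are CPM, and each was the highest of its group unless said otherwise.

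Among high-fat silica rats, rat 1 had Wfdc8 at 6.085, Pdk4 at 15.4 and the lowest Mmp12 at 106. Rat 4 had Trem2 at 64.6, and rat 5 had Cd177 at 44.1 and Nqo1 at 51.3. Regular-diet silica rat 1 had Fads2 at 51.1, Rpl14 at 159, Dbp at 8.83 and Per3 at 31.9. Among high-fat air rats, rat 4 stood apart for the macrophage genes Naaa (241), Gpnmb (352), Trem2 (25.4) and Atp6v0d2 (3.05). High-fat air rat 6 did so for Mmp12 (5.89), Spp1 (10.5) and Retnla (18.55), and rat 1 for Hnrnpa3 (253). Among regular-diet air rats, rat 1 had the lowest Cd177 at 6.52, rat 2 had Flvcr2 at 96.7 and Scimp at 22.2, and rat 3 had Insig1 at 81.8 and C3 at 797.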

How the results depend on the processing

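The 167 interaction genes had the same sign in each of the 8 planned fits with another scaling, filter, tool or covariate, and no call reversed. Their number was 159 with RLE size factors, 123 with no filter on low counts, 165 with the legacy edgeR method, 156 without Rnr1 and Rnr2 and 205 with 8 groups in 1 fit, where Zbtb16 missed the threshold. DESeq2 called 343 (air only 240, silica only 61, both 20, neither 22), with 1 gene at 3 months and 11 for the difference between time points. limma voom called 273 (201, 47, 15 and 10 in the same order of classes). With adjustment for the ribosomal RNA share 23 were called (0, 2, 0 and 21), with 1 diet difference in air, 27 with silica and 3870 silica effects on the regular diet. With the library split as a term 37 were called, 40.5% of them higher against 50.3% with all rats and no term (air only 4, silica only 7, both 0, neither 26), with 16 diet differences in air and 184 with silica. With regular-diet silica rats 1 and 2 only, 27 were called (air only 13, silica only 8, neither 0) and 318 diet differences with silica; with rats 3 to 5 only, 235 were called (both 2, neither 17) and 188 diet differences with silica. The class of neither held 8 genes with RLE, 10 with no filter and 5 with the legacy method. The silica-only class held 19 genes with no filter. With 8 groups in 1 fit, 11 genes were in both and 5 in neither, and with an unadjusted threshold for the diet differences 54 and 0. The cause of these moves was not tested. Leaving out each rat gave 72 to 274 interaction calls, 1625 to 2746 diet differences in air, 260 to 724 with silica, 7191 to 7965 silica effects on the high-fat diet and 6068 to 6880 on the regular diet. The classes ran from 53 to 216 for air only, 10 to 67 for silica only, 2 to 16 for both and 0 to 17 for neither. The 3-month interaction gave 0 calls each time and the difference between time points 0 to 7. No paired analysis was possible because the rat numbers of the groups are not shared. The 5 to 6 rats a group and 3078216 counts in the shallowest library limit the detection of small interactions.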
